A study of Mus musculus with 3 samples.

Results

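The genes described here are those of the substance P and pituitary adenylate cyclase-activating polypeptide (PACAP) systems: the ligand genes Tac1, Adcyap1 and Vip, the receptor genes Tacr1, Adcyap1r1, Vipr1 and Vipr2, and Mme, a peptidase that cleaves substance P. The files list them as ENSMUSG00000061762 (Tac1), ENSMUSG00000024256 (Adcyap1), ENSMUSG00000019772 (Vip), ENSMUSG00000030043 (Tacr1), ENSMUSG00000029778 (Adcyap1r1), ENSMUSG00000032528 (Vipr1), ENSMUSG00000011171 (Vipr2) and ENSMUSG00000027820 (Mme). They were chosen by name, and all 8 of 8 were found among the 33696 genes listed for each tendon library and the 35980 features listed for the dorsal root ganglion (DRG) library. The data are droplet single-cell RNA counts from C57BL/6 mice, with 1 library in each of 3 groups. In the neurectomy group the sural nerve was cut 1 week before 4 weeks of immobilization of the ankle in dorsiflexion, a model of tendon overstrain. In the sham group the nerve was exposed by opening the biceps femoris and left in place, and the same 4 weeks of immobilization followed. Both tendon groups therefore carried the overstrain, and no unloaded tendon was analysed here. Each tendon group drew on the Achilles tendons of 5 mice, whose age and sex the labels do not give and which cannot be told apart within a library. The DRG group held 18 ganglia of 6 mice, from L4 to S1, combined in 1 library. Those mice had received 5 µL of the vector AAV-PHP.S-tdTomato in the left Achilles tendon sheath at 4 weeks of age, and the ganglia were taken 4 weeks later. A sample label calls the vector a lentivirus, and the side of the ganglia is given as the injected one in the series text and as both in the protocol. The ganglion mice had neither neurectomy nor immobilization by their labels, so the ganglia say nothing of what nerve section did to the ligands.

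Substance P is cut from the Tac1 precursor and acts on the neurokinin-1 receptor, encoded by Tacr1, which couples to Gq; on venules this receptor is known for plasma leakage and leukocyte adhesion in neurogenic inflammation. PACAP, from Adcyap1, and vasoactive intestinal peptide, from Vip, are members of the secretin family of peptides and share receptors that raise cAMP: Adcyap1r1 encodes the PACAP-preferring receptor, whereas the products of Vipr1 and Vipr2 bind both peptides. Sensory neurons release such peptides from their peripheral endings, and neprilysin, the cell-surface enzyme encoded by Mme, ends the action of substance P by cutting it.

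The mature peptides are short, and the coding bases are shown to make plain what each ligand gene yields and how alike PACAP and vasoactive intestinal peptide are. In the Tac1 transcript on chromosome 6 the 33 coding bases of the 11 residues of substance P are followed by codons for glycine, lysine and arginine, the amidation and cleavage signal, in capitals.
Tac1: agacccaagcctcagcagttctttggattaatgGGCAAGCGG
The first 28 codons of PACAP, on chromosome 17, and the 28 codons of vasoactive intestinal peptide, on chromosome 10, are set side by side below, with the bases that both share in capitals.
Adcyap1: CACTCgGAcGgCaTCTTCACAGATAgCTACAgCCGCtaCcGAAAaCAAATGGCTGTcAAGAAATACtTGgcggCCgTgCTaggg
Vip: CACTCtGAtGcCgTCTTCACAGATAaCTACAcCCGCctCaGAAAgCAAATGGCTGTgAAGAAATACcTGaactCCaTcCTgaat
Of these 84 bases 62 are identical, or 73.8%, and 19 of the 28 encoded residues are identical, or 67.9%.

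Promoter windows from 250 bases before to 50 bases after the start site are shown for the ligands because Tac1 and Adcyap1 were both abundant in peptidergic neurons while Vip was near 0. They come from RefSeq (build GRCm38.p6), and capitals mark the letters TGACG, the core of the cAMP response element, on either strand. The Tac1 window lies at chr6:7554811-7555110 on the plus strand.
Tac1: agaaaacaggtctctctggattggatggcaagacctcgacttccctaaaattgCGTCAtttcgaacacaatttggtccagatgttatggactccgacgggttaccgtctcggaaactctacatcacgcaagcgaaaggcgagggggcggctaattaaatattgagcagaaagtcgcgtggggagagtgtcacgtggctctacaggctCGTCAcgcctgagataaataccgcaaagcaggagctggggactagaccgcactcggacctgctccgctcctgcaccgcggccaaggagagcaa
The Adcyap1 window lies at chr17:93198918-93199217 on the plus strand and belongs to the downstream one of 2 listed start sites.
Adcyap1: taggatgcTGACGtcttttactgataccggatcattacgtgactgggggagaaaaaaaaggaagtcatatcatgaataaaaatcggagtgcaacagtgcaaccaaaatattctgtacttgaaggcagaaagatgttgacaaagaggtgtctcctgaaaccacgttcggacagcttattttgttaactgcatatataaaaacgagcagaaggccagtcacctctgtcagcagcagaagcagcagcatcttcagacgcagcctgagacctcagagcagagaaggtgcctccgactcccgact
The Vip window lies at chr10:5638968-5639267 on the plus strand.
Vip: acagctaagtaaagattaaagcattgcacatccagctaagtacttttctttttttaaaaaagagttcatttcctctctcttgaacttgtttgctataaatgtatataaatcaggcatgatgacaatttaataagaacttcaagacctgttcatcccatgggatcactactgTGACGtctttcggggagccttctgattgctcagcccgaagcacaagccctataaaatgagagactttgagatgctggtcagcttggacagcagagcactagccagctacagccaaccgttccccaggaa
Tac1 held 2 matches, at 197 and 43 bases before the start, both on the minus strand; Adcyap1 held 1 at 242 bases before it and Vip 1 at 79 bases before it, both on the plus strand. The longer form TGACGTC, which contains the core, was in the Adcyap1 and Vip windows and not in that of Tac1. Of 32851 mouse promoter windows of this length, 20.8% held the core and 3.21% the longer form on either strand. Vip was not detected in peptidergic neurons, where Adcyap1 was highest, and whether these matches act in any cell was not tested. Among the other members the core was in the windows of Tacr1 and Vipr1 and not in those of Adcyap1r1, Vipr2 or Mme.

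Depth and composition differed between the libraries. The neurectomy library held 25067 barcodes and 79750679 unique molecular identifiers (UMIs), the sham library 32951 and 133570956, and the DRG library 23566 and 239515477, with median UMIs per barcode of 1212, 1065 and 3422 in that order. After filtering, 21992, 25306 and 22384 barcodes remained. Marker genes, none of them a member, placed 34.1%, 38.9% and 83.5% of these in a class, and every class name below stands for barcodes that resemble that cell type by these markers. Markers of the labelled tissues were present: 1530 neurectomy and 4854 sham barcodes carried at least 3 of the tenocyte markers such as Scx, Tnmd and Fmod, and 3466 ganglion barcodes carried neuronal markers such as Snap25 and Avil. Of the kept barcodes 569 were shared by the tendon libraries. Xist and Y-linked transcripts also set the libraries apart: 55528 Xist and 39 Y-linked UMIs in neurectomy, 61571 and 6366 in sham, and 23 and 49538 in DRG. Skeletal muscle actin, Acta1, had 8503 UMIs in the neurectomy library and 1062 in the sham library. The part of sex, muscle carry-over and depth in any difference between tendon libraries was not tested, except where a value is given.

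Tac1 was a neuronal transcript in the ganglion. Of its 213105 UMIs in the DRG library, 211374 lay in neurons, whose summed level was 1306 CPM (95% counting interval 1300–1311). CPM here is a class's summed UMIs of a gene, scaled to a common total of all its UMIs. The other ganglion classes of at least 30 barcodes lay between 4.84 and 28.8 CPM, among them satellite glia at 12.3 and myelinating Schwann cells at 14.5. With every barcode thinned to 5000 UMIs, 36.3% of neurons held both Tac1 and Adcyap1 and 27.0% Tac1 alone, against 0.0393% and 4.8% of satellite glia at the same depth, a class that should lack both genes. These glial shares serve as the background; 4 satellite glia barcodes held 5 or more Tac1 UMIs, up to 26, and how far free RNA or attached neurons give them was not tested. All intervals are exact and cover counting error only. Where a class held no UMI, the level it is said to allow is that of 3 UMIs and not an interval limit. With 1 library a group, no interval covers variation between animals.

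Peptidergic and cold-sensing neurons carried the most Tac1. The 355 peptidergic neurons, gated by genes such as Calca and Trpv1, held 4261 CPM (4230–4293), and the 139 neurons gated by the cold channel Trpm8 and its companions held 4005 (3948–4064). Their intervals did not overlap, but the order of this pair turned round with 1 marker more in each gate, with the mean over barcodes, and with clusters in place of gates, so neither is set above the other. In single neurons the median was 3574 CPM among peptidergic neurons (middle range 2431–5828) and 3653 among Trpm8 neurons (1723–6718), and all 139 Trpm8 neurons held a Tac1 UMI. Of the peptidergic neurons 206 only just met the gate's limit, as did 137 of the Trpm8 neurons, so the Trpm8 gate is the less certain.

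The remaining subtypes lay far below that pair. Proprioceptor neurons held 759 CPM of Tac1, low-threshold A-fibre touch neurons (A-LTMR) 676, and the silent nociceptors gated by Chrna3 held 649; the intervals of A-LTMR and Chrna3 neurons overlapped. Here the summed level and the typical neuron differed: the median single neuron held 29.8 CPM in the 44 proprioceptors, 28.9 in the 136 A-LTMR neurons and 355 in the 63 Chrna3 neurons. A single proprioceptor barcode held 461 of that class's 1138 Tac1 UMIs, and without it the class stood at 471 CPM. Itch neurons with Nppb and Sst held 258, A-delta CGRP neurons 228, Mrgprd nociceptors 214, C-fibre touch neurons (C-LTMR) 204 and Mrgpra3 neurons 126 CPM. Of these neighbours, the intervals of A-delta CGRP and Mrgprd neurons overlapped, as did those of Mrgprd and C-LTMR neurons.

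Low Tac1 was nevertheless widespread outside the peptidergic and Trpm8 neurons, in nociceptors and in touch neurons. Of the Mrgprd neurons thinned to 5000 UMIs, 46.9% held Tac1 without Adcyap1 (43.0–50.8), against 4.8% of satellite glia at the same depth. C-LTMR neurons gave 43.3% and Mrgpra3 neurons 26.8%. A-delta CGRP neurons had a median of 0 for Tac1, and 13.5% held it alone. Another 1346 neurons had no clear subtype and held 2333 CPM of Tac1; Adcyap1, Tac1, Gal and Trpv1 were among the genes that stood out in them, so part of the peptide-bearing neurons lies outside the gates.

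**Figure D1:**
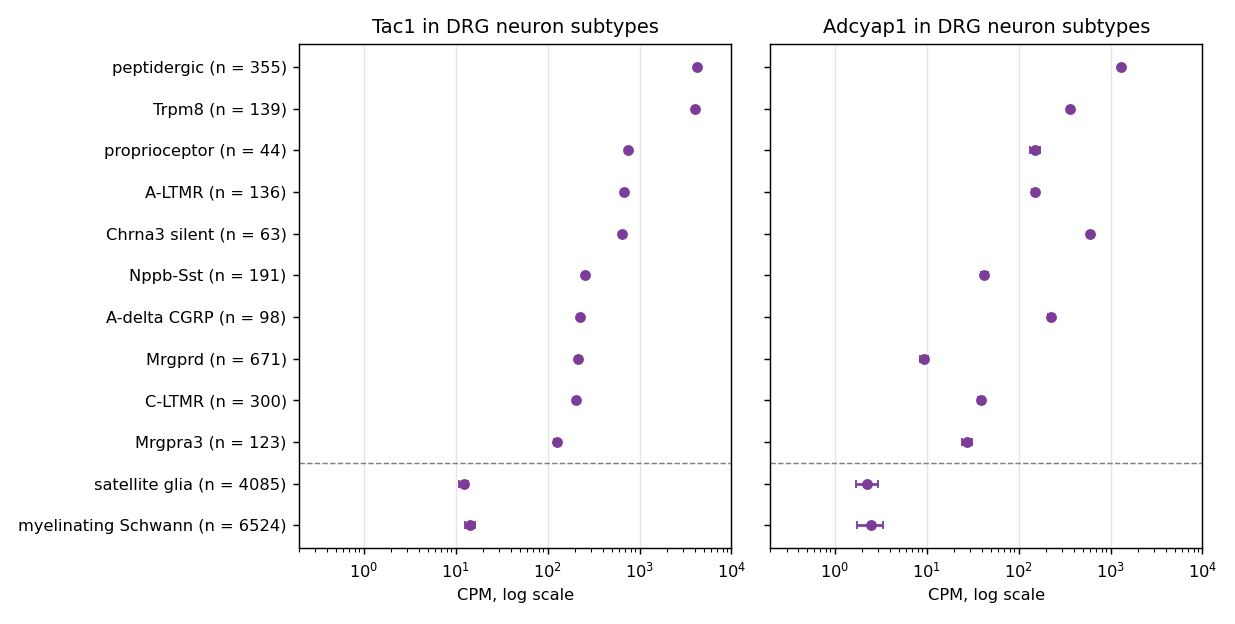
Summed levels of Tac1 (left) and Adcyap1 (right) in 10 gated neuron subtypes of the DRG library and, below the dashed line, in satellite glia and myelinating Schwann cells, in CPM on a log axis; bars are exact 95% counting intervals and n is barcodes. Peptidergic neurons stand at 4261 for Tac1 and 1291 for Adcyap1, and the glia at 12.3 or 14.5 and at 2.26 or 2.46.

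Adcyap1 followed a narrower order. Peptidergic neurons held 1291 CPM (1274–1308), Chrna3 silent nociceptors 591 (564–619), Trpm8 neurons 358 (341–376) and A-delta CGRP neurons 223 (209–238), and none of these intervals overlapped its neighbour's. Silent nociceptors, which respond to mechanical stimuli only after inflammation, were thus second for Adcyap1, although with mitochondrial reads held to at most 5% they stood at 282, behind Trpm8 neurons at 361. Proprioceptors at 151 and A-LTMR neurons at 149 could not be ordered, and the same held for Nppb-Sst neurons at 42.4 and C-LTMR neurons at 39.1. Mrgpra3 neurons at 27.5 and Mrgprd neurons at 9.39 were lowest, with satellite glia at 2.26 and myelinating Schwann cells at 2.46.

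Typical neurons gave the same picture for the upper subtypes. The median was 1318 CPM among peptidergic neurons, 535 among Chrna3, 262 among Trpm8 and 99.1 among A-delta CGRP neurons, and 0 among Mrgprd, Mrgpra3, Nppb-Sst and C-LTMR neurons. Adcyap1 without Tac1 was more frequent in A-delta CGRP than in Mrgprd neurons, at 29.2% against 0.151% at 5000 UMIs. The A-delta CGRP neurons were mixed, as 13.5% held Tac1 alone and 12.4% both. Their summed Tac1, 228 CPM, was near their Adcyap1. Vip had 2 UMIs in the whole DRG library, 1 in a Chrna3 neuron and 1 in an endothelial barcode, and was at the limit of detection in every class.

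Tac1 and Adcyap1 were found together in most peptidergic neurons. At 5000 UMIs, 326 of 346 held both, or 94.2% (91.2–96.4), and 3 held neither. Trpm8 neurons held both in 66.7% (58.1–74.5) and Tac1 alone in 32.6%, and only 1 of 138 held Adcyap1 alone. Chrna3 neurons held both in 46.0% (33.4–59.1) and Adcyap1 alone in 25.4%. Among A-LTMR neurons 23.3% held both, among proprioceptors 14.6%, and among Mrgprd neurons 3.63%. Apart from peptidergic neurons these shares moved with depth: at 15000 UMIs Trpm8 neurons held both in 85.3% and Tac1 alone in 14.0%, and without thinning in 91.4% and 8.63%. Proprioceptors held both in 26.7% at 15000 UMIs and 40.9% without thinning, A-LTMR neurons in 30.5% and 43.4%, Chrna3 neurons in 52.4% and 69.8%, and Mrgprd neurons in 5.01% and 17.4%. In the plot of single neurons the peptidergic barcodes form a group high in both, and the Trpm8 barcodes spread downwards at the same Tac1 level.

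**Figure D2:**
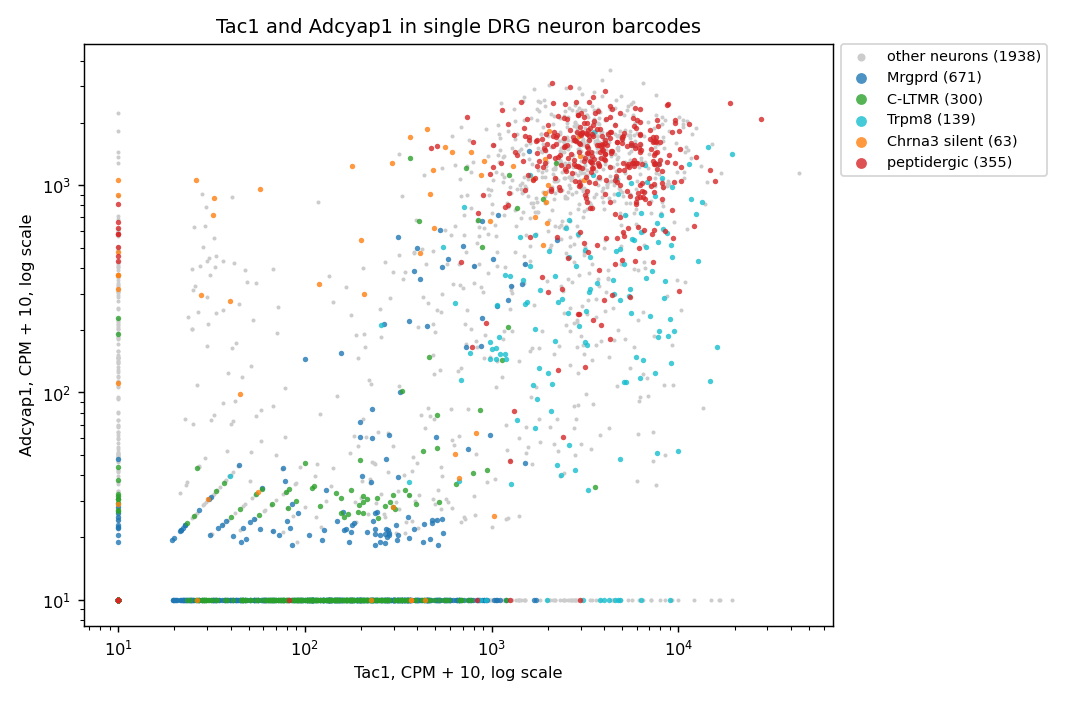
Each point is 1 of 3466 DRG neuron barcodes, with its Tac1 level on the horizontal and its Adcyap1 level on the vertical log axis, both in CPM plus 10, coloured by gated subtype; points on the lowest line of either axis had no UMI of that gene. Peptidergic neurons (median 3574 for Tac1 and 1318 for Adcyap1) lie at the upper right, and most Mrgprd and C-LTMR neurons lie on the lowest Adcyap1 line.

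Genes of peptide processing varied between the same subtypes. Pam, the enzyme that amidates substance P, held 873 CPM in Trpm8 neurons and 828 in peptidergic neurons, with Nppb-Sst neurons at 789, and 204 in Mrgprd neurons. Scg2, a granin of secretory granules, was highest in peptidergic neurons at 979 and lowest in C-LTMR neurons at 29.2. Cpe, a carboxypeptidase that trims basic residues, went the other way, with 198 in peptidergic neurons, its lowest level, and 749 in proprioceptors.

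The genes whose levels ran most like Tac1 over the 10 subtypes were Elf4, Spin2c, Pdia4, Rab34 and Sik1, with Pearson correlations of log2 levels between 0.947 and 0.953. For Adcyap1 they were Grb10 at 0.975, Zeb2 at 0.971, Ssc5d at 0.970, Kcnmb2 at 0.962 and Rab8b at 0.959. These 10 points share 1 library and the same neurons for every gene, and they are descriptions picked from all genes.

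Neurons that carried the transcript of the vector injected at the tendon are those whose endings the vector may have entered. They numbered 360, against 3106 without it, with median UMIs of 52257 and 47226. Tac1 stood at 1000.0 CPM with the vector and 1347 without, a ratio of 0.742 (0.731–0.754), and Adcyap1 at 337 with and 372 without, a ratio of 0.906 (0.883–0.930). Subtype make-up moved with this: the vector was in 33.7% of A-delta CGRP, 28.6% of Chrna3, 12.1% of peptidergic and 2.88% of Trpm8 neurons. Within subtypes Tac1 was lower with the vector in 7 of 10, such as A-delta CGRP neurons at 92.1 with and 321 without, and higher in 3, among them peptidergic neurons at 4538 with and 4223 without. Of 6 injury and regeneration genes, 5 were lower with the vector, such as Atf3 at 80.5 CPM with and 90.5 without. Among those 5 the intervals with and without the vector overlapped for Ecel1 and Flrt3. Gap43 was higher, at 805 with and 512 without. Satellite glia held the vector in 0.490% and myelinating Schwann cells in 0.184%. Adcyap1 was higher with the vector in 6 of 10 subtypes, such as C-LTMR neurons at 80.0 with and 36.7 without, and lower in 4, among them Chrna3 neurons at 428 with and 662 without and A-delta CGRP neurons at 123 with and 291 without. The subtypes held few neurons with the vector, from 4 in Trpm8 to 59 in Mrgprd neurons, with 18 in C-LTMR and 33 in A-delta CGRP neurons. No interval is given within subtypes, so the counts of subtypes higher or lower for Tac1 and Adcyap1 do not order single pairs.

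Receptors were scarce in the ganglion. Tacr1 had 33 UMIs in the DRG library, 24 of them in neurons, a level of 0.148 CPM (0.095–0.221), with 7 in C-LTMR and 6 in A-LTMR neurons and none in peptidergic neurons. Adcyap1r1 was found in ganglion pericytes at 4.74 CPM (5 UMIs), fibroblasts at 3.79 (32 UMIs) and satellite glia at 2.22 (53 UMIs, interval 1.66–2.90), whereas neurons held 0.117 (0.071–0.183) and the 6524 myelinating Schwann barcodes held none, which allows up to 0.180. Pericytes, fibroblasts and satellite glia could not be ordered by these intervals, and all lay above neurons. Vipr2 was at 4.62 CPM in ganglion fibroblasts (39 UMIs), and Vipr1 had 26 UMIs in the whole library. The 355 peptidergic neurons, highest for Adcyap1, held 1 UMI of its receptor transcript.

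Mme set myelinating Schwann cells apart in the ganglion. They held 2851 of its 4011 UMIs, at 171 CPM (165–178), with satellite glia at 10.3 (9.05–11.7), fibroblasts at 18.5 (15.7–21.6) and non-myelinating Schwann cells at 3.06 (0.832–7.82). The 32 perineurial barcodes stood at 18.7 on 6 UMIs. Myelinating Schwann cells are the glia that wrap large axons. Thinned to 1000 UMIs, 14.3% of myelinating Schwann barcodes held an Mme UMI, against 0.857% of satellite glia and 0.325% of non-myelinating Schwann cells. Among neurons Mme was highest in proprioceptors at 16 CPM (10.2–23.8) and A-LTMR neurons at 10.5 (7.86–13.7), whose axons are myelinated, and their intervals overlapped. Peptidergic neurons held 2.98 (2.21–3.93) and Mrgprd neurons 0.473 (0.303–0.704). The summed level in neurons was 1.79. How far glial RNA adds to the neuronal values was not tested.

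In the tendon, Tacr1 was highest in blood endothelium, which held 233 of the 358 UMIs in kept neurectomy barcodes and 188 of the 396 in sham ones; another 95 and 149 lay in barcodes outside every gate. Blood endothelial barcodes held 56.5 CPM in the neurectomy library (49.5–64.2; 233 UMIs) and 44.1 in the sham library (38.1–50.9; 188 UMIs), and lymphatic endothelial barcodes held none in either, which allows up to 1.51 and 0.887. Tenocytes held 1.79 in neurectomy and 1.18 in sham. Within blood endothelium the transcript lay with Selp, the adhesion molecule P-selectin of venules: barcodes with a Selp UMI held 155 in neurectomy (134–178) and 184 in sham (157–215), and those without it 12.3 (8.57–17.1) and 7.70 (5.03–11.3). Selp is also one of the markers that gated blood endothelium, and the split by it was chosen after values were seen. The intervals with and without Selp were far apart in both libraries, but the sham value with Selp rested on 32 of 209 barcodes. A single barcode held 50 of its 162 UMIs, and without that barcode it stood at 129 CPM, below its interval.

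The sham endothelial value rested on few barcodes. A single sham barcode held 50 of the 188 UMIs and the next 36, and without the first the class stood at 32.5 CPM; no neurectomy barcode held more than 8. The UMIs lay in 141 of 1564 neurectomy and 51 of 1321 sham endothelial barcodes. Thinned to 1000 UMIs, 3.97% of neurectomy (2.96–5.20) and 2.2% of sham endothelial barcodes (1.41–3.25) held Tacr1, and the intervals overlapped. Ganglion endothelium differed from tendon: its 751 blood endothelial barcodes held 1 Tacr1 UMI, and its 67 barcodes with Selp held none, which allows up to 6.87 CPM.

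Over the 36 classes of at least 30 barcodes in the 3 libraries, the genes whose levels ran most like Tacr1 were Gm33206 at a correlation of 0.940, Gja5 at 0.937, Rex2 at 0.935, Apln at 0.928 and Aplnr at 0.921. Gja5 encodes a connexin of arterial endothelium, and Apln and Aplnr the peptide apelin and its receptor. The 36 points share 3 libraries, and the values are descriptions.

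**Figure D3:**
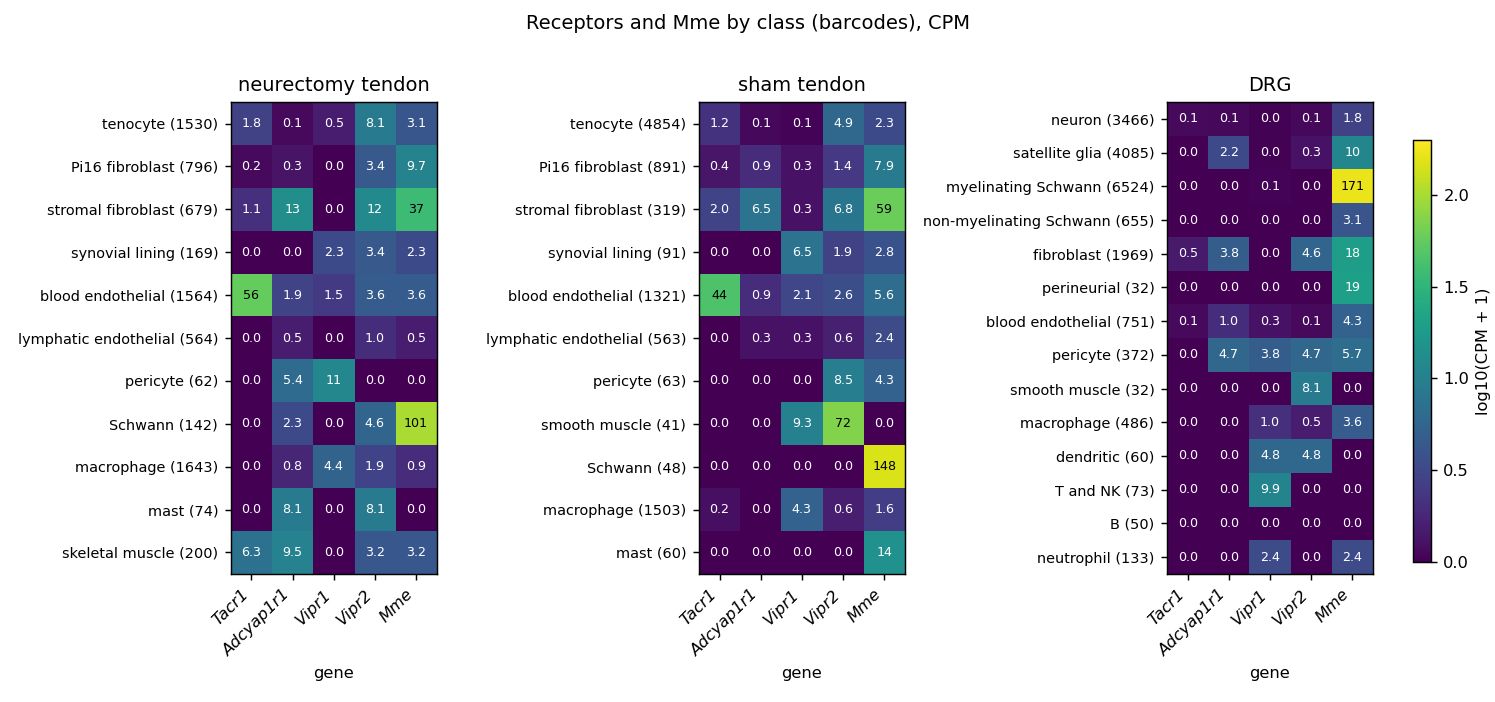
Heat maps of the summed levels of Tacr1, Adcyap1r1, Vipr1, Vipr2 and Mme in the gated classes of the neurectomy, sham and DRG libraries, with colour for log10 of CPM + 1, the CPM printed in each cell and barcodes in brackets. Tacr1 stands out in tendon blood endothelium (56.5 in neurectomy and 44.1 in sham), Vipr2 in sham smooth muscle (71.5), and Mme in Schwann cells of every library (101 in neurectomy, 148 in sham and 171 in myelinating cells of the DRG).

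The PACAP-preferring receptor was found in a different tendon class. Adcyap1r1 was highest in stromal fibroblasts, gated by genes such as Col15a1 and Hsd11b1, at 12.7 CPM in neurectomy (8.85–17.7; 35 UMIs) and 6.51 in sham (4.13–9.77; 23 UMIs). In neurectomy the interval overlapped those of skeletal muscle at 9.51, mast cells at 8.05 and pericytes at 5.36, which rested on 1 to 3 UMIs each. Pi16 fibroblasts, the adventitial type, held 0.311 in neurectomy and 0.949 in sham, and tenocytes 0.149 and 0.128. Its ligand gene Adcyap1 had no UMI in any tendon barcode, which allows up to 0.0386 CPM of the kept neurectomy barcodes and 0.0233 of the sham ones. Vip had 1 UMI in the neurectomy library and 3 in the sham library.

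Of the receptors that bind both peptides, Vipr2 shared the stromal class with Adcyap1r1, at levels near its 12.7 and 6.51 CPM, but stood higher in smooth muscle. Vipr2 was at 85.7 CPM in neurectomy smooth muscle (39.2–163; 9 UMIs in 10 barcodes) and 71.5 in sham smooth muscle (45.3–107; 23 UMIs in 41 barcodes). It was lower in stromal fibroblasts, at 11.6 in neurectomy and 6.79 in sham, and in tenocytes, at 8.13 (6.68–9.81) and 4.88 (4.21–5.62). Vipr1 was sparse: macrophages held 4.36 CPM in neurectomy (23 UMIs) and 4.26 in sham (37 UMIs), and dendritic cells 9.31 (2 UMIs) and 19.9 (9 UMIs). Over the 36 classes the genes that ran most like Vipr2 were Angpt4, Grip2, Stc2, Gm15816 and Edar, at correlations between 0.829 and 0.853. Among those for Adcyap1r1 were Zim1, Inmt, Adh1 and Tspan11, between 0.671 and 0.741, of which Inmt was a marker of the stromal gate. For Vipr1 they were Slc25a43 at 0.746 and Gm7854, A730090N16Rik, Gm16064 and Trmt5 between 0.634 and 0.690, on few Vipr1 UMIs.

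Among tendon classes of at least 30 barcodes, Mme was again highest in Schwann cells. They held 101 CPM in neurectomy (73.3–135; 44 UMIs in 142 barcodes) and 148 in sham (110–195; 51 UMIs in 48 barcodes), and these intervals overlapped. Stromal fibroblasts came next, at 37.0 in neurectomy (30.2–44.96) and 59.2 in sham (51.4–67.8), ahead of Pi16 fibroblasts at 9.65 and 7.88. Tenocytes held 3.13 in neurectomy and 2.29 in sham. The genes that ran most like Mme over the 36 classes were Sema6c, Nfasc, Mobp, Fa2h and Trp53cor1, between 0.833 and 0.841; Fa2h was one of the markers that gated myelinating Schwann cells.

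**Figure D4:**
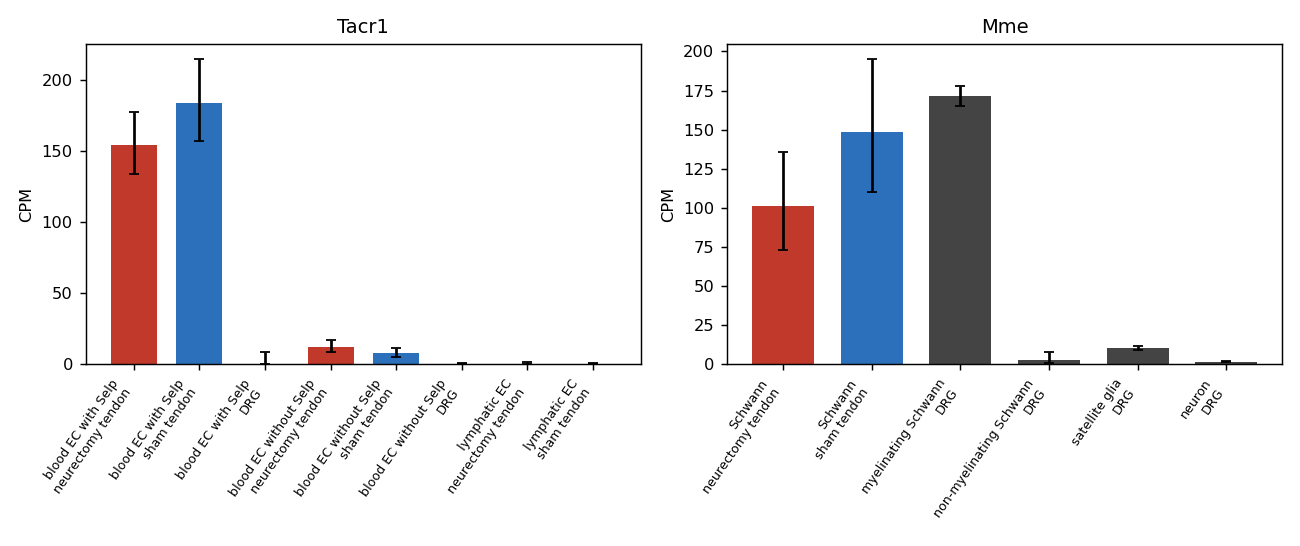
Bars of the summed levels of Tacr1 in endothelial classes (left) and of Mme in glia and DRG neurons (right), in CPM by library, starting at 0, with exact 95% counting intervals. Tendon blood endothelium with Selp holds the highest Tacr1 bars (155 in neurectomy and 184 in sham). Tendon Schwann cells and myelinating Schwann cells of the DRG hold the highest Mme bars, and non-myelinating Schwann cells of the DRG stand at 3.06.

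Tac1 was also counted in the tendon, at levels near those of ganglion glia. Tenocytes held 16.1 CPM in neurectomy (14.0–18.4; 216 UMIs) and 14.6 in sham (13.5–15.9; 570 UMIs), and stromal fibroblasts 9.44 and 12.2. Blood endothelium held 2.42 in neurectomy and 2.82 in sham, and Schwann cells held none. Barcodes outside every gate held 10.1 in neurectomy and 25.7 in sham, so much of the tendon Tac1 could not be given a class. Whether free RNA adds to these values was not tested.

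Neurectomy against sham asks whether peripheral nerve section moved these genes in the overstrained tendon. No member was at least 2-fold apart in any of the 6 classes with 100 barcodes in both libraries, among the 6 pairs of a member and a class with at least 50 summed UMIs and 10 CPM in the higher library. Of all genes that met these minimums, 1.55% were 2-fold apart in tenocytes, 2.74% in stromal fibroblasts and 1.9% in blood endothelium, the 3 classes in which a member met them. With 1 library a group, these are differences between 2 libraries and not tests of nerve section.

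Tenocyte Tac1 was 16.1 in neurectomy and 14.6 in sham, a log2 ratio of 0.14 (−0.09 to 0.37), which was −0.06 without the barcodes that the tendon libraries share, and stromal Tac1 had a log2 ratio of −0.37 (−1.13 to 0.37). Both intervals include no difference. Endothelial Tacr1 had a log2 ratio of 0.36 (0.07 to 0.64), but with Selp it was −0.25 (−0.56 to 0.06; 3.81% of all genes 2-fold apart), without Selp 0.68 (−0.10 to 1.47; 1.5% apart), among barcodes of at least 5000 UMIs −0.45 and as a mean over barcodes 1.16, past 2-fold, so neither its direction nor its size was stable.

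Among the 6 pairs that met the minimums, the widest differences were in stromal fibroblasts. Adcyap1r1 had a log2 ratio of 0.96 (0.16 to 1.79), Vipr2 of 0.77 (−0.03 to 1.60) and Mme of −0.68 (−1.03 to −0.33). The depth of this class moved with them. Its 679 neurectomy barcodes had a median of 1980 UMIs, against 9099 for its 319 sham barcodes. Among barcodes of at least 5000 UMIs the stromal ratios stayed within their counting intervals. The part of depth was not tested further. The Adcyap1r1 ratio passed 2-fold with 1 marker more in each gate, at 1.70, and as a mean over barcodes, at 1.10.

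Over all kept barcodes Tac1 was 9.02 CPM in neurectomy (702 UMIs) and 17.2 in sham (2208 UMIs), a log2 ratio of −0.93 (−1.05 to −0.80), with 1.25% of all genes 2-fold apart. Class make-up, depth and Y-linked UMIs differed between these libraries. Among barcodes with an Xist UMI, and in sham also no Y-linked UMI, the log2 ratio was −0.77. Pi16 fibroblasts held 20 Tac1 UMIs in neurectomy and 84 in sham, and macrophages 4 and 34, at levels below the minimum. Their log2 ratios were −1.36 (−2.14 to −0.64) and −2.37 (−4.32 to −0.88). Of the 34, 1 sham macrophage barcode held 13, and without it that class stood at 2.44 CPM in place of 3.92. Other pairs below the minimum were higher in neurectomy, such as Vipr2 in tenocytes at 0.74 (0.38 to 1.08). Vipr2 in Pi16 fibroblasts was at 1.27 (0.25 to 2.32), and Adcyap1r1 over all kept barcodes at 1.15 (0.75 to 1.56).

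**Figure D5:**
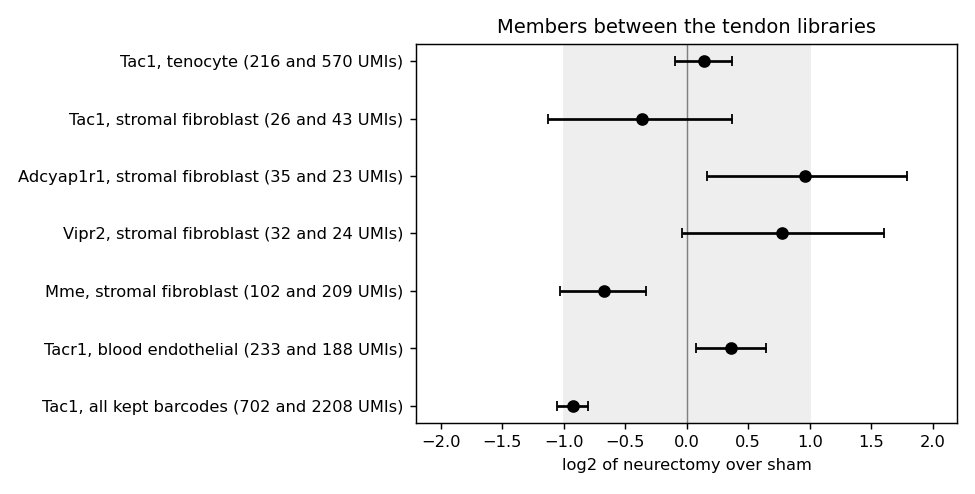
Log2 ratios of neurectomy over sham for the 6 pairs of a member and a class that met the minimums and for Tac1 over all kept barcodes, with exact 95% counting intervals; the line marks no difference, and the grey band spans up to 2-fold in either direction. Stromal Adcyap1r1 lies at 0.96 and stromal Mme at −0.68, and tenocyte Tac1 at 0.14.

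Related genes give the surroundings of the members. The tachykinin list of 8 genes also held the Mas-related receptors Mrgprb2 and Mrgpra1. Mrgprb2, a mast cell receptor that substance P activates in mice, was at 362 CPM in neurectomy tendon mast cells (264–485, 45 UMIs). In those of the sham library it was at 176 (125–240, 39 UMIs). Mast cells numbered 74 and 60. Mrgpra1 had 339 UMIs in ganglion neurons, at 2.09 CPM. Tacr3 had 59 UMIs in the DRG library and Tac4 53 in the sham library.

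In the list of 18 genes of the PACAP, VIP and secretin family and the Ramp genes, Sct had 79 UMIs in ganglion neurons. Gcg was at 11 CPM in ganglion fibroblasts (93 UMIs). Glp2r was at 401 in neurectomy Schwann cells (175 UMIs) and 184 in sham macrophages (1600 UMIs), and at 17.6 in non-myelinating Schwann cells of the ganglion. Glp1r had 75 UMIs in the neurectomy library and 106 in the sham library. Ramp1, Ramp2 and Ramp3 encode accessory proteins of this receptor class: Ramp2 was highest in lymphatic endothelium in the tendon, at 367 in neurectomy and 480 in sham.

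Between the tendon libraries, Ramp1 was lower in neurectomy in Pi16 fibroblasts, at 7.63 against 27.9 CPM in sham, and in blood endothelium, at 5.33 against 13.2; 1.46% and 1.9% of all genes were 2-fold apart in these classes. Of the processing genes, Cpe was 2-fold lower in neurectomy tenocytes, at 8.13 against 16.4 in sham, but higher in neurectomy Pi16 fibroblasts, at 43.9 against 14.2, and macrophages, at 13.1 against 4.61. Dpp4, a peptidase that trims peptides of the PACAP family, was higher in neurectomy in blood endothelium, at 23.0 against 8.22 in sham, and in macrophages, at 18.6 against 5.30. Pi16 fibroblasts, which it helped to gate, held far more, at 275 in neurectomy and 220 in sham. Whether free RNA or doublets add to the lower values was not tested. Ece1, an endothelin-converting enzyme that also cuts substance P, was at 811 CPM in neurectomy and 912 in sham lymphatic endothelium, and at 340 and 345 in blood endothelium, less than 2-fold apart in both. Macrophages had the highest background of the 6 classes, with 3.14% of all genes 2-fold apart, and tenocytes had 1.55%. Few genes of these lists met the minimums. Ramp1 was 1 of 3 of its list that did so in Pi16 fibroblasts and in blood endothelium. Cpe was 1 of 2 processing genes in tenocytes, 1 of 3 in Pi16 fibroblasts and 1 of 2 in macrophages. Dpp4 was 1 of 7 peptidases in blood endothelium and 1 of 6 in macrophages.

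Of the 26 genes of Gs, cAMP and Gq signalling, 18 met the minimums in each class but blood endothelium, where 21 did. Those 2-fold apart were 1 each in tenocytes, stromal fibroblasts and macrophages, 2 in lymphatic endothelium and 0 in the other 2 classes. Rapgef4, a cAMP-activated exchange factor, was 2-fold higher in neurectomy tenocytes, at 28.9 against 14.0 in sham, and stromal fibroblasts, at 13.8 against 5.38. In these 2 classes 1.55% and 2.74% of all genes were 2-fold apart. Adcy2, an adenylyl cyclase, and Rapgef3 were higher in neurectomy lymphatic endothelium, at 48.8 against 23.9 and 16.1 against 5.62, where 2.84% of all genes were 2-fold apart. Plcb1, a phospholipase downstream of Gq, was higher in neurectomy macrophages, at 103 against 51.4 in sham. Of the 12 cAMP target genes none was 2-fold apart in any of the 6 classes, a count near the background of 1.46% to 3.14% of all genes, with 11 or 12 meeting the minimums in each and median log2 ratios between −0.22 and 0.19, beside −0.02 to 0.02 for all genes.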

How the data were processed

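The authors deposited whole-number UMI counts per gene and barcode for 3 droplet libraries, whose headers name Cell Ranger 8.0.1 (per the file headers); the submitters' processing notes name mm10 and GRCm39 without a role. Barcodes were kept from 500 detected genes upwards and up to 15% mitochondrial UMIs. A marker counted where a barcode held a UMI at 2 times or more the library's mean share. A class needed 3 markers and a lead of 2, and a neuron subtype 3 markers and a lead of 1; these thresholds were set after seeing the data. Unclear barcodes were left out and no doublet caller was run. UMIs were summed per class and scaled to a common total (CPM), with exact Poisson, Clopper-Pearson or conditional binomial 95% intervals, which cover counting error only. With 1 library per group no test was possible. Shares were compared after thinning to 1000 UMIs, or 5000 for neurons. Likeness is Pearson's r of log2(CPM + 10), and the 5 highest genes were taken for each member; 1 of them is not reported here. All 8 members were named; of the lists, family genes with at least 50 UMIs, and, in the class described, the 3 highest genes (not all are named) and those 2-fold apart. The members and lists were chosen with earlier results of these data known. Steps were tested on simulated data. Python 3.11.15, numpy 2.4.6, scipy 1.17.1, pandas 2.3.3 and leidenalg 0.10.2 were used. Coding sequence came from GENCODE transcripts and promoters from RefSeq.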

Additional observations from a re-analysis of the deposited data

How the results depend on the processing

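No paired analysis was possible because each group is 1 library. Of 459 recomputed levels 318 moved by less than their counting interval and 49 by over 1.5 times; the cause was not tested. Tacr1 in neurectomy blood endothelium (56.5 CPM) was 46.1 with at least 5000 UMIs a barcode, 38.9 with Leiden clusters and 155 with Selp; in sham (44.1) it was 62.8, 30.2 and 184, and 24.1 as a mean over barcodes. Mme in myelinating Schwann cells (171) was 132.5 with at least 5000 UMIs, 160.3 with at most 5% mitochondrial UMIs and 161 as a mean. Peptidergic Tac1 (4261) was 4486 with 1 marker more, 4155 with at least 5000 UMIs, 4221 with at least 1000 genes, 5029.6 with at most 5% mitochondrial UMIs and 3792 with Leiden clusters; Trpm8 neurons were above it with 1 marker more (5205), as a mean (4701) and with Leiden clusters (4130). Peptidergic Adcyap1 (1291) was 1334 with 1 marker more. The share of peptidergic neurons with both ligands (94.2%) was 97.04% at 15000 UMIs, and the Tac1 ratio with over without the vector (0.742) was 0.729 with 2 vector UMIs. The log2 ratio of tenocyte Tac1 (0.14) was 0.39 with at least 5000 UMIs, −0.11 as a mean and −0.18 with Leiden clusters. That of endothelial Tacr1 (0.36) was −0.45 with at least 5000 UMIs, 1.16 as a mean and −0.25 with Selp. That of Tac1 over all barcodes (−0.93) was −0.77 with Xist and, in sham, no Y-linked UMI. Without barcodes shared by the tendon libraries, 30 of 33 levels and all 7 ratios stayed within their counting intervals, but tenocyte Tac1 changed sign (−0.06) and sham macrophage Tac1 (3.92) was 2.52. All 7 counts of genes apart moved with no minimum count.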

Other observations

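Tendon Tac1 lay in few barcodes. Barcodes with at least 5 Tac1 UMIs numbered 27 in neurectomy and 98 in sham and held 37.0% and 52.7% of the Tac1 UMIs, with up to 24 in a neurectomy and 40 in a sham barcode. They were deep, with median totals of 23007 and 34953 UMIs. By class, 12 neurectomy and 26 sham ones were tenocytes, and 14 and 63 had no class. Among barcodes of at least 5000 UMIs, 5.64% of neurectomy (166 of 2944) and 8.99% of sham ones (476 of 5293) held Tac1. Genes higher in these barcodes than in those without Tac1 in both libraries, chosen after their values were seen, included Il1rl1, the receptor of interleukin-33, at 213 against 26.2 CPM in neurectomy and 162 against 8.99 in sham. F2r, a thrombin receptor, was at 166 against 37.3 in neurectomy and 133 against 35.8 in sham.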
